A study of Drosophila melanogaster with 16 samples.

Results

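Of the genes that act after transcription in the fly's circadian clock, 8 were followed in whole larvae: the kinase genes dco, sgg, nmo, CkIIalpha and CkIIbeta, the F-box genes slmb and jet, and to (takeout), an output gene of the clock. They were chosen by symbol, and all 8 were present among the 9863 genes of the deposited table and among the 9837 genes tested. The label under which they were grouped, kinases and degradation factors, covers 7 of them, whereas to encodes a secreted protein that is neither.

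The clock of Drosophila melanogaster runs on a loop in which Clock and Cycle switch on genes for their own repressors, Timeless and its partner among them. How fast those repressors build up, enter the nucleus and are destroyed is set largely by phosphorylation, which marks them for ubiquitin ligases and the proteasome. Several of the same kinases and F-box proteins also act in Wnt and Hedgehog signalling and in growth, so their RNA is made in most larval tissues and not in clock neurons alone.

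RNA was sequenced from whole larvae of a control strain, not described further in the labels, and of cwoB9, an allele of cwo (clockwork orange), the gene for a basic helix-loop-helix repressor that acts on clock genes. First-instar larvae ate low-sugar food (10% yeast) for 24 h at 25 °C and were moved in the early second instar to 8 h on either low-sugar or high-sugar food (10% yeast and 15% sucrose) with 2% blue food dye, so that all groups share the low-sugar start. The wording of the labels leaves unclear whether the dye was in both foods or in the high-sugar food alone. Each genotype was sequenced on each diet, with 4 libraries in each of the 4 groups. The labels do not give the time of day, the sex, the number of larvae in a library or the origin of the replicates. The p-values therefore reflect how far these libraries spread, and part of that spread may be technical.

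Levels are the deposited CPM values (reads of a gene relative to the library's total, scaled by the authors) with the mean ± SD of 4 libraries. Differences are on the scale log2(CPM + 0.5) ± SE, from limma fitted to all tested genes, two-sided, with Benjamini-Hochberg adjusted p-values, and a gene is said to have risen or fallen only where the adjusted p is under 0.05. Taking the smallest value of each library as 1 read, which was inferred from the values and not stated by the authors, libraries held between 44.95 and 54.19 M reads over the genes listed. On that assumption the gene with the fewest reads, to, rested on 53 to 234 reads per library and jet on 208 to 367. In whole larvae, fewer cells that express a gene and less RNA per cell cannot be told apart. As a check of the labels, cwo stood at 54.9 to 72.8 CPM in control libraries and at 139 to 291 CPM in libraries labelled mutant, so its RNA was not lost. The gene w (white), which encodes a pigment transporter, stood at 0.159 to 0.869 CPM in control libraries and at 316 to 553 CPM in libraries labelled mutant, so the strains differ in the level of w as well as in cwo. A level per gene cannot show the lesion of the allele. The term "labelled mutant" is used for these libraries, since the direction of each genotype difference depends on the labels. Among the libraries, 1 in each group had the highest Tweedle score, the mean log2 level of 15 cuticle genes of the Tweedle family that mark the moult (5.26 to 5.96 in those 4 libraries, 3.12 to 4.78 in the other 12). Markers of larval tissues were present in all groups, with 7 of 7 muscle, 6 of 6 midgut, 6 of 6 neuron, 3 of 3 glia and 4 of 4 haemocyte genes above 0, but of 5 fat body markers only FASN1 and apolpp were among the genes listed. Several of these markers moved with diet and genotype. The midgut markers summed to 469.6 to 556 CPM in control on low sugar, 1353 to 1953 in control on high sugar, 1480 to 1761 in labelled mutant on low sugar and 2410 to 3064 in labelled mutant on high sugar. Of the 6, 5 rose on high sugar in each genotype, where 33.1% and 22.5% of all tested genes rose and 67.9% and 52.1% passed. The exception was lab, at 0.08 ± 0.06 in control and -0.01 ± 0.06 in libraries labelled mutant (adjusted p = 0.261 and 0.869). All 6 were higher in libraries labelled mutant on low sugar, where 23.1% of all tested genes were higher and 43.8% passed. On high sugar 4 of the 6 were higher in libraries labelled mutant and none was lower, where 21.1% of all tested genes were higher and 40.0% passed. Of the 7 muscle genes, 4 rose on high sugar in control, where 33.1% of all tested genes rose and 67.9% passed. None of the 7 rose or fell on high sugar in libraries labelled mutant, where 52.1% of all tested genes passed. On low and high sugar, 3 and 5 of them were lower in libraries labelled mutant. Of all tested genes, 20.8% and 18.9% were lower there, and 43.8% and 40.0% passed. The part of these tissues in the levels of the 8 genes was not tested.

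The largest member of the set by level was CkIIalpha and the smallest was to. Corrected for length, as CPM per kb of annotated exon and averaged over the 16 libraries, CkIIalpha stood at 93.2, above 90.8% of tested genes with a known length. CkIIbeta followed at 26.1, dco at 18.7, slmb at 16.6, sgg at 11.6, nmo at 4.02, jet at 3.79 and to at 2.03 CPM per kb. The neighbours dco and slmb, and nmo and jet, overlapped in their group means (16.3 to 20.3 against 15.1 to 18.9, and 3.54 to 4.39 against 3.45 to 4.36 CPM per kb), so the order within these pairs is not settled. For the other neighbours the ranges of the group means were separate. Exon length is the union over all annotated transcripts, 19 of them for sgg and 2 for to, and overstates the length of any gene whose transcripts differ much.

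On high sugar, most of these genes lost RNA by a small amount and to gained it. In control larvae 5 of the 8 fell (CkIIalpha, CkIIbeta, dco, slmb and nmo), 1 rose (to) and 2 did not pass (sgg and jet). Of all tested genes 34.8% fell and 33.1% rose, 67.9% in either direction, so the share of members that passed is near the background. For 6 of the 8 the libraries of the diets did not overlap, as for 64.2% of all tested genes. The median difference of the 8 was -0.28 on the log2 scale, against 0.0001 over all tested genes. In libraries labelled mutant the same 5 genes fell and to, sgg and jet rose, where 29.5% of tested genes fell and 22.5% rose, 52.1% in all (median -0.17 against -0.01). There 7 of the 8 had no overlap, against 45.2% of all tested genes. By size of change, CkIIalpha was above 76.5% and to above 92.5% of tested genes in control larvae, and the remaining members were above 25.3% to 58.1%.

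**Figure D1:**
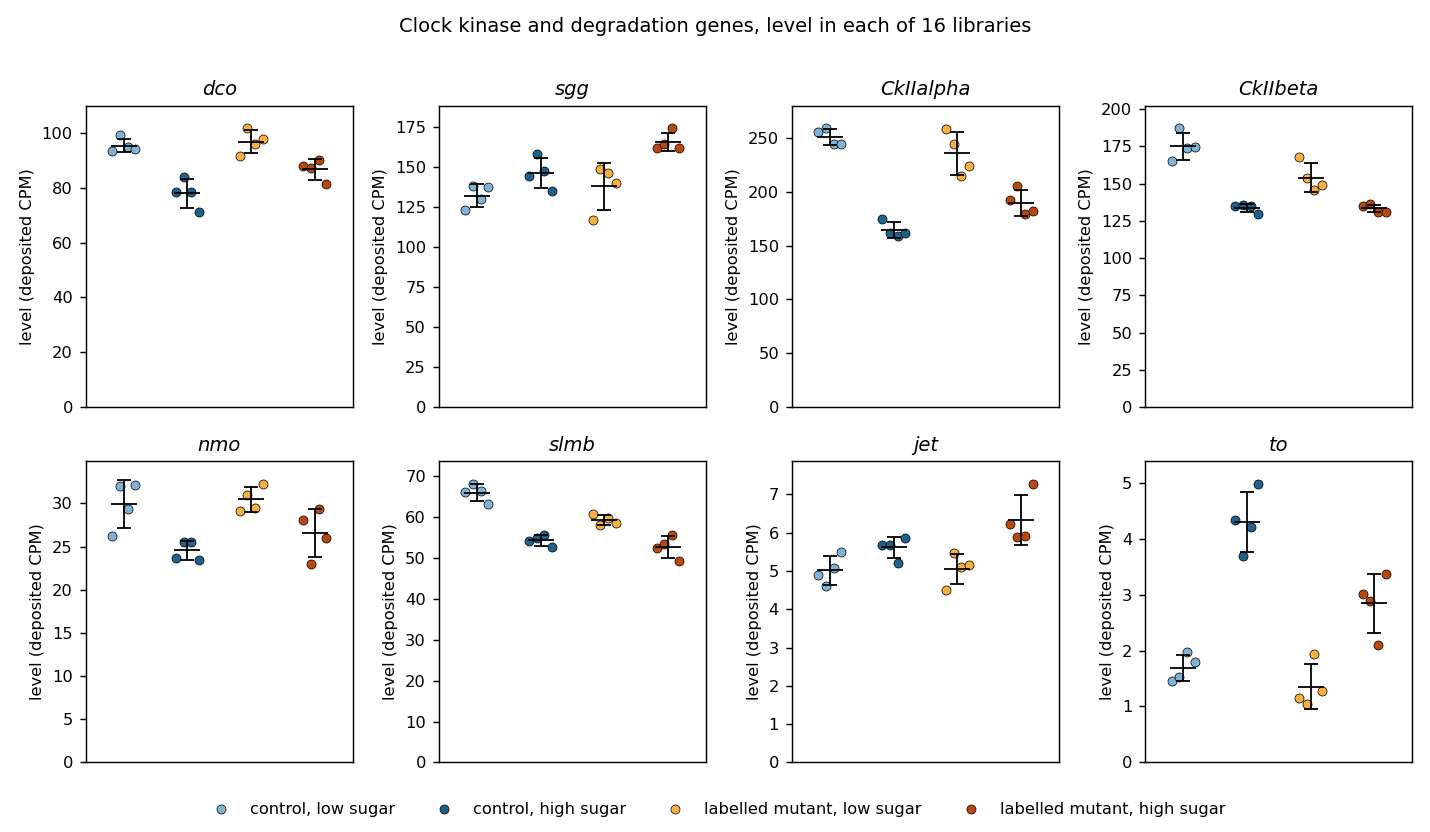
Level of each of the 8 genes in deposited CPM (vertical axis from 0, own scale in each panel) in the 16 libraries, coloured by group, with bars for the mean ± SD of 4 libraries. CkIIalpha falls from 251 to 164 CPM between control low and high sugar, while to rises from 1.69 to 4.30 CPM.

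Casein kinase II is a holoenzyme of catalytic alpha and regulatory beta subunits that phosphorylates the clock repressors in the cytoplasm before they enter the nucleus. CkIIalpha (FBgn0264492, 3L 23097072 to 23103460, plus strand, BDGP6), the catalytic subunit, measured 256, 259, 244 and 245 CPM in control libraries on low sugar. On high sugar the control libraries gave 175, 161, 159 and 162 CPM. All high-sugar libraries lay below all low-sugar libraries, and the fall was by 0.61 ± 0.06 on the log2 scale (adjusted p = 2.53e-07), from 251 ± 7.56 to 164 ± 7.32 CPM. In libraries labelled mutant, CkIIalpha measured 259, 245, 215 and 224 CPM on low sugar. On high sugar those libraries gave 192, 206, 179 and 182 CPM, again with no overlap, a fall by 0.31 ± 0.06 (adjusted p = 4.23e-04). The difference between these falls, the interaction of genotype and diet, was 0.30 ± 0.08 (adjusted p = 0.0236), and CkIIalpha was the only one of the 8 to pass that test, where 16.9% of all tested genes passed (7.92% higher and 8.95% lower).

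The interaction of CkIIalpha did not pass without replicate 2 of control on low sugar (0.28, adjusted p = 0.0510), without replicate 2 of labelled mutant on high sugar (0.26, adjusted p = 0.0506), or without the 4 libraries of highest Tweedle score (0.29, adjusted p = 0.109).

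CkIIbeta (FBgn0000259, X 11792533 to 11801587, plus strand), the regulatory subunit, measured 165, 187, 174 and 174 CPM in control libraries on low sugar and 135, 135, 135 and 130 CPM on high sugar. The ranges did not overlap and the fall was by 0.39 ± 0.05 (adjusted p = 2.60e-06). Libraries labelled mutant gave 168, 154, 146 and 149 CPM on low sugar and 135, 136, 131 and 131 CPM on high sugar. There, too, every high-sugar library was lower (fall by 0.21 ± 0.05, adjusted p = 0.00160). On low sugar CkIIbeta was lower in libraries labelled mutant by 12.1% (-0.19 ± 0.05, adjusted p = 0.00435), with the highest of them, 168 CPM, inside the control range. On high sugar both genotypes stood at nearly the same level, 134 ± 2.61 and 133 ± 2.55 CPM, with an interval for the log2 difference of -0.10 to 0.09. The interaction of CkIIbeta, 0.18 ± 0.07, had the sign of that of CkIIalpha and did not pass (adjusted p = 0.0719), though it passed without replicate 1 of control on low sugar (0.21, adjusted p = 0.0442), without replicate 1 of labelled mutant on low sugar (0.22, adjusted p = 0.0104), with quantile normalization (0.23, adjusted p = 0.0272), and with the Tweedle score as a covariate (0.18, adjusted p = 0.0323).

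To set the subunits against each other, their ratio was taken within each library. CPM of CkIIalpha divided by CPM of CkIIbeta was 1.44 ± 0.0758 in control on low sugar and 1.23 ± 0.0538 on high sugar. All high-sugar control libraries (1.18 to 1.30) lay below all low-sugar ones (1.39 to 1.55), with an exact two-sided permutation p of 0.0286, the smallest that 4 against 4 libraries allow, and 0.0572 after adjustment over 8 such tests. In libraries labelled mutant the ratio was 1.53 ± 0.0490 and 1.42 ± 0.0641, the ranges overlapped, and the exact permutation p was 0.0857 (adjusted 0.137). On high sugar, every library labelled mutant (1.37 to 1.51) had a higher ratio than every control library (exact permutation p = 0.0286, adjusted 0.0572). None of the 8 tests of ratios passed 0.05 after adjustment. These are ratios of reads, not of subunits.

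**Figure D2:**
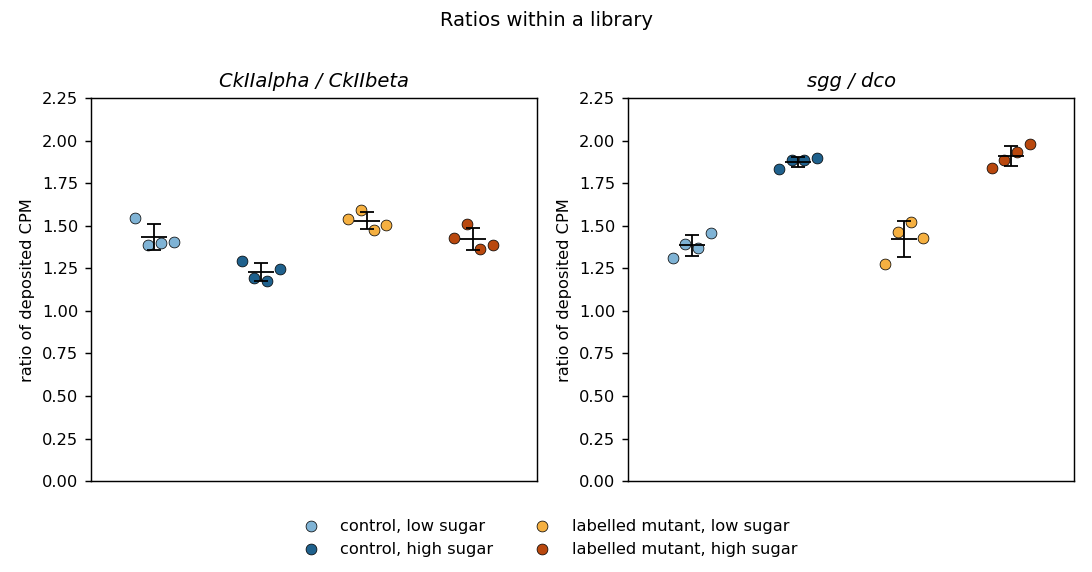
Ratio of deposited CPM within a library, CkIIalpha to CkIIbeta on the left and sgg to dco on the right, for 4 libraries in each of 4 groups with bars for the mean ± SD. The casein kinase II ratio is lowest in control on high sugar (1.23), and the sgg to dco ratio is higher on high sugar in both genotypes (1.88 and 1.91 against 1.39 and 1.42).

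dco (FBgn0002413, 3R 31054085 to 31061210, minus strand), also called double-time, encodes the casein kinase I that phosphorylates the clock's repressor in complex with Timeless and so prepares it for destruction. Control libraries held 93.5, 99.1, 94.9 and 94.1 CPM on low sugar and 78.6, 83.9, 78.5 and 71.1 CPM on high sugar. The groups were separate and dco fell by 0.29 ± 0.05 (adjusted p = 1.10e-04), from 95.4 ± 2.53 to 78.0 ± 5.24 CPM. Libraries labelled mutant held 91.6, 102, 96.1 and 97.96 CPM on low sugar and 87.9, 87.1, 90.2 and 81.5 CPM on high sugar. The lowest low-sugar library, at 91.6, was barely above the highest high-sugar one, at 90.2, and the fall was by 0.16 ± 0.05 (adjusted p = 0.0154). It did not pass with quantile normalization (-0.11, adjusted p = 0.0835), without replicate 2 of labelled mutant on low sugar (-0.14, adjusted p = 0.0535), or without replicate 4 of labelled mutant on high sugar (-0.13, adjusted p = 0.0566). The interaction, 0.13 ± 0.07, did not pass (adjusted p = 0.226).

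sgg (FBgn0003371, X 2633952 to 2679553, plus strand), shaggy, is the fly's glycogen synthase kinase-3, which phosphorylates Timeless and promotes nuclear entry of the repressor complex, and which also restrains glycogen synthesis and Wnt signalling. Its direction was opposite to that of dco. Control libraries measured 123, 138, 130.2 and 137 CPM on low sugar and 144, 158, 148 and 135 CPM on high sugar. These ranges overlapped, and the difference of 0.14 ± 0.07 did not pass (adjusted p = 0.0828, interval -0.01 to 0.30). It did pass with median-ratio scaling (0.16, adjusted p = 0.0438), in a fit of only those 8 libraries (0.14, adjusted p = 0.0464), with roX1 as a covariate (0.24, adjusted p = 0.00215), without replicate 4 of control on high sugar (0.18, adjusted p = 0.0434), and without replicate 1 of labelled mutant on low sugar, which changes only the estimate of spread (0.14, adjusted p = 0.0199). Libraries labelled mutant measured 117, 149, 147 and 140.1 CPM on low sugar and 162, 164, 174 and 162 CPM on high sugar. All high-sugar values were higher and sgg rose by 0.27 ± 0.07 (adjusted p = 0.00518), from 138 ± 14.7 to 166 ± 5.89 CPM. The difference between these diet responses of sgg did not pass (interaction 0.12 ± 0.10, adjusted p = 0.435, interval -0.09 to 0.34). Exons of sgg share 1470 bases, 11.8% of its exon length, with lncRNA:CR45197 on the same strand, and reads of the pair cannot be told apart there.

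The ratio of sgg to dco within a library was higher on high sugar in both genotypes. This follows from the opposite directions already given for these genes, so the ratio adds no separate evidence. The ratio of sgg to dco CPM was 1.39 ± 0.0600 on low and 1.88 ± 0.0283 on high sugar in control, and 1.42 ± 0.107 and 1.91 ± 0.0599 in libraries labelled mutant. On each genotype no high-sugar library overlapped a low-sugar one (exact permutation p = 0.0286 in each, adjusted 0.0572). Between genotypes the ratio differed by 0.04 on low sugar and by 0.03 on high sugar on the log2 scale, with exact permutation p-values of 0.571 and 0.314. Markers of neurons were also read on the diets: 5 of 6 rose in control and 4 of 6 in libraries labelled mutant. Of all tested genes 33.1% and 22.5% rose there, and 67.9% and 52.1% passed. The marker elav passed in neither genotype (-0.05 ± 0.07 and -0.07 ± 0.07, adjusted p = 0.559 and 0.399). The 6 summed to 204 to 237 CPM in control on low sugar and 283 to 319 on high sugar. In labelled mutant they summed to 234 to 292 CPM on low sugar and 278 to 318 on high sugar. Glia markers summed to 68.4 to 74.8, 143 to 151, 73.1 to 87.7 and 128 to 144 CPM in the same order, and the part of either cell type in the level of sgg was not tested.

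nmo (FBgn0011817, 3L 7979046 to 8054147, plus strand), nemo, is a MAP kinase-like kinase that acts on the repressors in clock neurons and on Wnt and BMP signalling elsewhere. Control libraries lay at 26.2 to 32.1 CPM on low sugar and at 23.5 to 25.6 CPM on high sugar, without overlap, a fall by 0.28 ± 0.08 (adjusted p = 0.00491). In libraries labelled mutant they ran from 29.1 to 32.3 and from 22.9 to 29.3 CPM, which overlapped, and the fall was by 0.20 ± 0.08 (adjusted p = 0.0413). That second fall is the least firm of the 8 genes' calls on diet. It did not pass with median-ratio scaling (-0.17, adjusted p = 0.0659), with quantile normalization (-0.15, adjusted p = 0.0962), in the fit of only those 8 libraries (-0.20, adjusted p = 0.0695), with roX1 as a covariate (-0.19, adjusted p = 0.0520), or without any 1 of 5 libraries, among them replicate 2 of labelled mutant on high sugar (-0.13, adjusted p = 0.144). The other 4 were replicate 3 of control on low sugar (-0.20, adjusted p = 0.0506), replicates 2 and 4 of labelled mutant on low sugar (-0.19 and -0.17, adjusted p = 0.0849 and 0.102) and replicate 4 of labelled mutant on high sugar (-0.19, adjusted p = 0.0845).

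**Figure D3:**
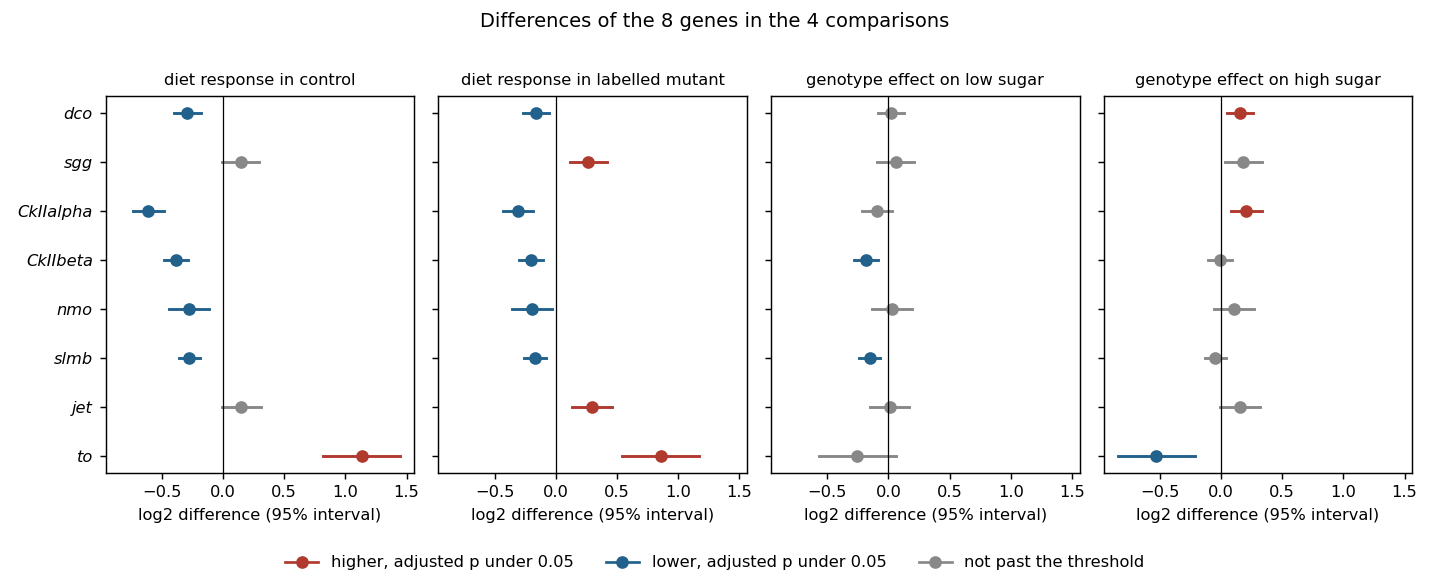
Differences of the 8 genes on the log2(CPM + 0.5) scale with 95% intervals in the 4 comparisons, red where higher, blue where lower and grey where the adjusted p was not under 0.05. On diet 5 genes lie to the left of 0 in both genotypes and to lies furthest to the right, at 1.13 and 0.86, while between genotypes most intervals cross 0.

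Of the F-box genes, slmb fell on high sugar in both genotypes, and jet rose in libraries labelled mutant only, with no test passed for the difference between its responses (interaction 0.15 ± 0.11, adjusted p = 0.383). slmb (FBgn0283468, 3R 21119252 to 21127485, minus strand), supernumerary limbs, is the substrate receptor of the SCF ubiquitin ligase that recognises the phosphorylated clock repressor, as well as Cubitus interruptus and Armadillo. Control libraries held 66.0, 68.1, 66.5 and 63.1 CPM on low sugar and 54.1, 55.0, 55.7 and 52.6 CPM on high sugar, a fall by 0.28 ± 0.04 (adjusted p = 2.23e-05). Libraries labelled mutant held 60.8, 58.1, 59.8 and 58.4 CPM on low sugar and 52.5, 53.5, 55.5 and 49.1 CPM on high sugar, a fall by 0.17 ± 0.04 (adjusted p = 0.00253). Neither pair of groups overlapped. On low sugar all 4 libraries labelled mutant lay below all 4 control libraries, and slmb was lower there by 10.0% (-0.15 ± 0.04, adjusted p = 0.00696). On high sugar the difference was -0.05 ± 0.04 (adjusted p = 0.400, interval -0.13 to 0.04), and the interaction did not pass (0.11 ± 0.06, adjusted p = 0.227).

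jet (FBgn0031652, 2L 4948206 to 4949784, minus strand), jetlag, encodes the F-box protein through which light leads to the destruction of Timeless. It was low, between 4.52 and 7.28 CPM in all libraries. In control the level was 5.02 ± 0.371 CPM on low and 5.62 ± 0.282 CPM on high sugar. The difference of 0.15 ± 0.08 did not pass (adjusted p = 0.0913), though it passed without replicate 4 of control on low sugar (0.19, adjusted p = 0.0481). In libraries labelled mutant all high-sugar values (5.88 to 7.28) exceeded all low-sugar values (4.52 to 5.47), and jet rose by 0.30 ± 0.08 (adjusted p = 0.00406). Exons of jet share 119 bases, 8.2% of its exon length, with betaggt-I on the other strand. The kit keeps strand, but the sources used here do not say whether counting used it, so it is not known how reads of the shared part were counted. The level of betaggt-I was 27.3 ± 0.459, 28.3 ± 1.13, 28.4 ± 0.722 and 32.9 ± 1.16 CPM in control on low and high sugar and in labelled mutant on low and high sugar. It also rose in libraries labelled mutant (0.21 ± 0.04, adjusted p = 3.67e-04), and its part in the level of jet was not tested.

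to (FBgn0039298, 3R 25240180 to 25241668, plus strand), takeout, is a clock-controlled gene whose secreted product resembles juvenile hormone-binding proteins and which is linked to feeding and starvation in adult flies. It had the largest response of the 8. Control libraries held 1.45, 1.53, 1.97 and 1.80 CPM on low sugar and 4.33, 3.69, 4.20 and 4.98 CPM on high sugar. No library overlapped, and to rose by 1.13 ± 0.15 (adjusted p = 6.32e-06), a fold of 2.20 on a scale that understates changes of low genes. Libraries labelled mutant held 1.15, 1.05, 1.94 and 1.28 CPM on low sugar and 3.001, 2.89, 2.11 and 3.37 CPM on high sugar. There to rose by 0.86 ± 0.15 (adjusted p = 1.80e-04), again without overlap, although the lowest high-sugar library, at 2.11, was close to the highest low-sugar one, at 1.94. The 4 group means were ordered labelled mutant on low sugar (1.36 CPM), control on low sugar (1.69), labelled mutant on high sugar (2.84) and control on high sugar (4.30), and the lowest of these did not separate from its neighbour (difference -0.25 ± 0.15, adjusted p = 0.180). That comparison passed without replicate 3 of labelled mutant on low sugar (-0.39, adjusted p = 0.0301). In adults to is expressed in the fat body among other tissues. Of the 2 fat body markers listed here, FASN1, a fatty acid synthase, went from 1519 ± 58.7 to 7626 ± 525 CPM in control and from 2494 ± 721 to 7564 ± 348 CPM in libraries labelled mutant (2.33 ± 0.13 and 1.64 ± 0.13, adjusted p = 1.09e-09 and 1.15e-07). The other, apolpp, an apolipoprotein, went the opposite way in control, from 6667 ± 569 to 5660.0 ± 378 CPM (-0.23 ± 0.09, adjusted p = 0.0297), and did not pass in libraries labelled mutant (-0.07 ± 0.09, adjusted p = 0.538). The summed level of both was 7440 to 8764 and 12360 to 13840 CPM in control on low and high sugar, and 7488 to 9936 and 12800 to 14770 CPM in libraries labelled mutant. Lsp2, Fbp1 and Fbp2 were not among the listed genes, and the part of this tissue in the level of to was not tested.

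**Figure D4:**
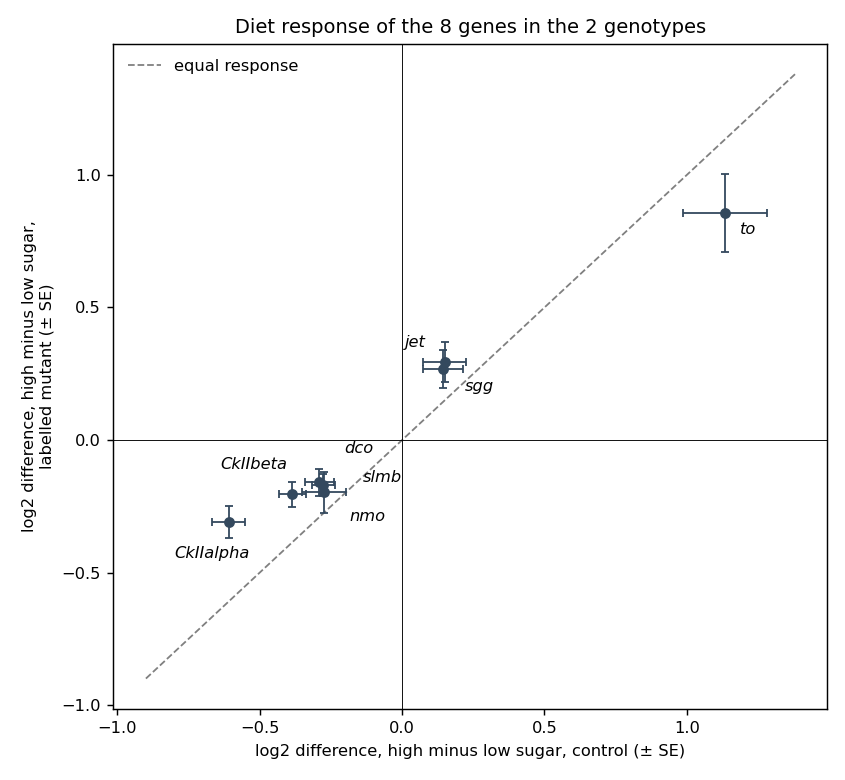
Diet response of each gene, high minus low sugar on the log2(CPM + 0.5) scale ± SE, in control (horizontal) and in libraries labelled mutant (vertical), with a dashed line of equal response. The 5 genes that fell lie above the line, nearer 0 in the labelled mutant (CkIIalpha at -0.61 and -0.31), and to lies below it (1.13 and 0.86).

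Between genotypes, the 8 genes were compared on each diet separately. On low sugar, 2 were lower in libraries labelled mutant (CkIIbeta and slmb), none was higher and 6 did not pass, where 20.8% of all tested genes were lower and 23.1% higher, 43.8% in all. Libraries did not overlap for 1 of the 8, slmb, against 37.3% of all tested genes. The differences of dco, sgg, nmo and jet lay between 0.01 and 0.06, that of CkIIalpha was -0.09 ± 0.06 (adjusted p = 0.217), and the sign for dco and jet flipped under quantile normalization, in which CkIIalpha was lower (-0.17, adjusted p = 0.0188). On high sugar, 2 were higher in libraries labelled mutant (CkIIalpha and dco), 1 was lower (to) and 5 did not pass, where 21.1% of all tested genes were higher and 18.9% lower, 40.0% in all, so the share of members that passed is near the background. Libraries did not overlap for 4 of the 8, against 40.1% of all tested genes. CkIIalpha was higher by 15.5% (0.21 ± 0.06, adjusted p = 0.0107), with all libraries labelled mutant above all control libraries. dco was higher by 11.2% (0.15 ± 0.05, adjusted p = 0.0248) with overlapping libraries, since the lowest labelled mutant value, 81.5 CPM, lay under the highest control value, 83.9. to was lower by 0.53 ± 0.15 (adjusted p = 0.00957), and its highest labelled mutant library, at 3.37 CPM, lay below its lowest control library, at 3.69. For sgg the libraries did not overlap either (162 to 174 against 135 to 158 CPM), but the difference of 0.18 ± 0.07 missed the threshold (adjusted p = 0.0549), as did that of jet (0.16 ± 0.08, adjusted p = 0.118).

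Several of these genotype calls depended on which libraries entered. Without the 4 libraries of highest Tweedle score, the number that passed on high sugar went from 3 to 1: dco gave 0.09 (adjusted p = 0.220) and to gave -0.35 (adjusted p = 0.102). With roX1, an RNA made in males that measured 61.8 to 190.1 CPM in control on high sugar and 134 to 246 CPM in labelled mutant on high sugar, as a covariate, dco gave 0.07 (adjusted p = 0.193) and to gave -0.44 (adjusted p = 0.0559). dco also missed the threshold with quantile normalization (0.11, adjusted p = 0.122), in the fit of only those 8 libraries (0.15, adjusted p = 0.0537), and without replicate 4 of control on high sugar (0.11, adjusted p = 0.0842) or any of replicates 1, 2 and 3 of labelled mutant on high sugar (0.15, 0.15 and 0.13, adjusted p = 0.0599, 0.0514 and 0.0705). sgg, by contrast, passed on high sugar with median-ratio scaling (0.19, adjusted p = 0.0343), in the fit of only those 8 libraries (0.18, adjusted p = 0.0215), without replicate 2 of control on high sugar (0.22, adjusted p = 0.0330) and without replicate 1 of labelled mutant on low sugar (0.18, adjusted p = 0.0101).

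In the interaction, 7 of the 8 coefficients were positive, from 0.08 for nmo to 0.30 for CkIIalpha, and that of to was -0.28 ± 0.21 (adjusted p = 0.394). The median of the 8 was 0.13, against 0.0004 over all tested genes, of which 7.92% passed as higher and 8.95% as lower. Signs of coefficients that did not pass are descriptions only. For the 5 genes that fell on high sugar a positive coefficient means a smaller fall in libraries labelled mutant, and for sgg and jet a larger difference upward. Only the coefficient of CkIIalpha passed, and diet responses and genotype effects here share libraries.

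Other genes of the same machinery were read out of the same fit, from lists put together by function. Each count on diet is given with the share of all 9837 tested genes that passed in that comparison. Phosphatases oppose the clock kinases. Of 7 tested genes of protein phosphatases 1 and 2A, none rose and 4 fell in control on high sugar (median -0.12), where 34.8% of all tested genes fell and 67.9% passed. In libraries labelled mutant none rose and 3 fell (median -0.06), where 29.5% of all tested genes fell and 52.1% passed. The catalytic subunit gene Pp1-87B went from 297 ± 4.23 to 249.5 ± 6.86 CPM in control (-0.25 ± 0.04, adjusted p = 1.57e-05). Pp1alpha-96A and flw, other catalytic subunits of that phosphatase, fell by 0.32 ± 0.05 and 0.21 ± 0.04 in control. On high sugar these 3 genes were higher in libraries labelled mutant, by 0.17 ± 0.04, 0.22 ± 0.05 and 0.25 ± 0.04 (adjusted p = 0.00122, 0.00312 and 1.35e-04), and no other gene of the list passed there. Of all tested genes 21.1% were higher in that comparison and 40.0% passed. On low sugar 2 of the 7 were lower, mts, the catalytic subunit of phosphatase 2A, by -0.11 ± 0.03 and its scaffold Pp2A-29B by -0.09 ± 0.03 (adjusted p = 0.0139 and 0.0304). There 20.8% of all tested genes were lower and 43.8% passed.

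Among 7 other kinases and kinase partners, 5 fell, 1 rose and 1 did not pass in control (median -0.19, 67.9% of all tested genes passed), and 3 fell, 1 rose and 3 did not pass in libraries labelled mutant (median -0.10, 52.1% of all tested genes passed). Bdbt (bride of doubletime), a partner protein of the dco kinase, fell by 0.35 ± 0.05 in control and by 0.33 ± 0.05 in libraries labelled mutant (adjusted p = 3.75e-05 and 1.22e-04). CkIalpha, another casein kinase I gene, went from 168 ± 6.02 to 137 ± 3.51 CPM in control and from 152 ± 1.56 to 139 ± 2.88 CPM in libraries labelled mutant. Its interaction passed (0.17 ± 0.05, adjusted p = 0.0277). Pka-C1, the catalytic subunit of protein kinase A, was lower in libraries labelled mutant on low sugar (-0.35 ± 0.08, adjusted p = 0.00149) and on high sugar (-0.24 ± 0.08, adjusted p = 0.0188), and S6kII, a ribosomal S6 kinase that binds casein kinase II, was lower by -0.24 ± 0.08 and -0.27 ± 0.08 (adjusted p = 0.0303 and 0.0171).

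The turnover list holds 17 genes, all tested. Of these, which include SCF subunits, the COP9 signalosome that removes Nedd8 from cullins, and other regulators of clock protein turnover, 12 fell, none rose and 5 did not pass in control (median -0.24), and 11 fell, 1 rose and 5 did not pass in libraries labelled mutant (median -0.17). Of all tested genes, 67.9% passed in control, a share near that of the list, with 34.8% lower, and 52.1% passed in libraries labelled mutant, with 29.5% lower. CSN1b, a signalosome subunit, went from 55.5 ± 1.55 to 41.4 ± 1.48 CPM in control (-0.42 ± 0.04, adjusted p = 3.10e-07) and fell by 0.28 ± 0.04 in libraries labelled mutant. CSN6, another subunit, fell by 0.49 ± 0.05 and 0.36 ± 0.05. sxc, the O-GlcNAc transferase that modifies clock proteins, went from 155 ± 1.77 to 126 ± 3.07 CPM in control, and it was the only gene of the list whose interaction passed (0.16 ± 0.04, adjusted p = 0.0230). CSN5, the signalosome's catalytic subunit, and CSN4 were lower in libraries labelled mutant on low sugar (-0.28 ± 0.05 and -0.27 ± 0.06, adjusted p = 3.65e-04 and 9.94e-04) and on high sugar (-0.21 ± 0.05 and -0.32 ± 0.06, adjusted p = 0.00361 and 3.28e-04).

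**Figure D5:**
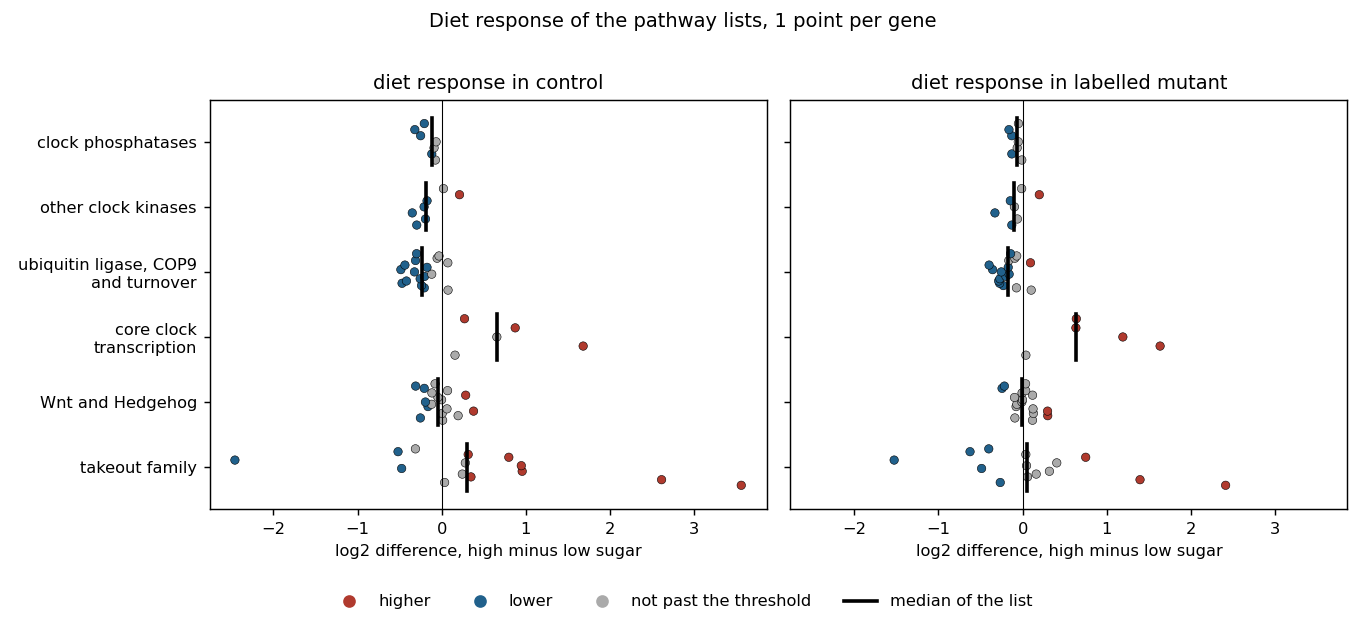
Difference between high and low sugar on the log2(CPM + 0.5) scale for each tested gene of 6 lists (rows), in control (left) and in libraries labelled mutant (right), coloured by whether the adjusted p was under 0.05, with a bar at the median of each list. The turnover list has its median at -0.24 and -0.17, and the core clock list, which includes cwo, at 0.65 and 0.64.

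Of 5 core clock transcription genes in the list that were tested, 3 rose and none fell in control (median 0.65), and 4 rose and none fell in libraries labelled mutant (median 0.64), where 33.1% and 22.5% of all tested genes rose and 67.9% and 52.1% passed. The 5 are cyc, tim, vri, Pdp1 and cwo itself, the gene of the allele, while Clk and cry were not among the genes listed. In control the median is the value of vri, which did not pass (0.65 ± 0.29, adjusted p = 0.056). In libraries labelled mutant it is the value of cwo (0.64 ± 0.09, adjusted p = 2.52e-05). The RNA of tim, the substrate of sgg and jet, measured 1.32 ± 0.290 CPM in control on low sugar and 5.30 ± 0.390 on high sugar, and 11.5 ± 0.262 and 37.0 ± 4.64 CPM in libraries labelled mutant. Between genotypes on low sugar tim was thus higher by 2.73 ± 0.10 while sgg, jet and dco differed by at most 0.06 on the same scale. The members that passed there, CkIIbeta and slmb, were lower (-0.19 ± 0.05 and -0.15 ± 0.04). On high sugar tim was higher by 2.69 ± 0.10, and sgg, jet and dco differed by 0.18, 0.16 and 0.15, of which only dco passed. Of the other members, CkIIalpha was higher there (0.21 ± 0.06) and to was lower (-0.53 ± 0.15). A relation of these levels to tim was not tested. Among 17 Wnt and Hedgehog components, in whose pathways sgg, slmb and dco also act, 5 fell, 2 rose and 10 did not pass in control (median -0.05), and 2 fell, 2 rose and 13 did not pass in libraries labelled mutant. Both counts that passed are below the share of all tested genes, 67.9% and 52.1%. Axn, the scaffold that holds the sgg kinase in the Wnt destruction complex, went from 46.4 ± 1.61 to 38.8 ± 1.02 CPM in control. ci, the Hedgehog transcription factor processed through slmb, was lower in libraries labelled mutant by -0.33 ± 0.09 on low sugar and by -0.49 ± 0.09 on high sugar (adjusted p = 0.00736 and 3.59e-04).

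Genes of the takeout family moved in both directions, some by more than to. Of 23 family genes in the list 14 were tested. In control 7 rose, 3 fell and 4 did not pass, and in libraries labelled mutant 3 rose, 5 fell and 6 did not pass. Both shares that passed are near those of all tested genes, 67.9% and 52.1%. CG1124 went from 13.7 ± 3.70 to 164 ± 12.6 CPM in control (3.56 ± 0.15, adjusted p = 3.31e-11) and from 23.2 ± 4.29 to 124 ± 5.78 CPM in libraries labelled mutant. CG33306 fell from 104 ± 5.42 to 18.5 ± 1.49 CPM in control (-2.46 ± 0.08, adjusted p = 5.32e-12) and from 175 ± 25.1 to 59.9 ± 3.53 CPM in libraries labelled mutant. The nearest neighbours of to, CG11852 and CG11854, lie 1285 and 352 bases away on the same strand. CG11852 rose in control from 54.3 ± 4.48 to 337 ± 56.1 CPM. Between genotypes CG11854 was higher in libraries labelled mutant on low sugar (1.69 ± 0.13, adjusted p = 6.37e-08) and on high sugar (1.40 ± 0.13, adjusted p = 5.83e-07), the opposite sign of the difference measured for to. Whether reads can be shared between these related genes was not tested.

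The genes whose level over the 16 libraries was most like that of a member were named for the members whose group means spanned at least 0.5 on the log2 scale, CkIIalpha and to. For CkIIalpha they were Tim23 (Pearson r = 0.993 of log2 levels), mRpS10 (0.992) and mRpS18B (0.990). Tim23, for example, averaged 204, 114, 189 and 140 CPM in control on low and high sugar and labelled mutant on low and high sugar. For to they were CG13012 (0.970), CaMKI (0.966) and CG1637 (0.961). CaMKI averaged 93.7, 126, 86.5 and 105 CPM in the same order. These correlations are descriptions over libraries that share 4 group means.

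In the authors' deposited table, the adjusted p-values gave the same call and direction as the fit used here in 32 of 32 comparisons of a member.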

How the data were processed

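RNA of 16 libraries was measured after rRNA depletion, with a stranded kit and 75 bp single-end reads over 2 runs of each library, per the labels' protocols. The submitters' processing notes name Trimmomatic, TopHat2 (version 2.1.0), HTSeq and limma. The sources used here give no settings, build or annotation. The deposited values carry the name CPM, but their sums per library run from 960909 to 1043965 and 9 are above what CPM allow, so their unit was taken as signal. In control the sums were 960909 to 971423 on low sugar and 1018636 to 1043965 on high sugar. In labelled mutant they overlapped, at 971950 to 1013107 and 1005363 to 1032362. Median-ratio scaling and quantile normalization were run as alternatives, but scaling to equal sums was not. The tests planned for CPM were kept. From the authors' model the deposited table also holds log2 differences, scores (moderated statistics) and p-values. In each library every deposited value was a whole multiple of the smallest one, which gave the read totals. The authors do not state that these multiples are reads, and the check of the unit did not accept them, so no count test was run.

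Genes were kept where 4 or more libraries reached 1 CPM. Their log2(CPM + 0.5) values were fitted in limma (version 3.58.1, R 4.3.3) as 4 group means without covariates, with eBayes moderation by a mean-variance trend (12 residual and 2.97 prior degrees of freedom). Adjustment was by Benjamini-Hochberg over all tested genes, separately for 5 comparisons. The fit was tested on simulated data. Ratios, which were not among the planned comparisons, were compared by exact permutation tests (scipy 1.17.1). Python 3.11.15, numpy 2.4.6, pandas 2.3.3 and matplotlib 3.10.9 served for tables and figures. Positions and exon lengths came from BDGP6 (Ensembl release 115), where 135 listed IDs were not found. Members and lists were chosen with earlier results of these data known. The rule named every member and, of each list, the 3 genes with the smallest adjusted p in each main comparison, from which the genes printed were picked after their values were seen. CG11852, CG11854 and betaggt-I were named by position. The alternatives changed the pseudocount, filter, scaling, variance model or covariates, used the replicate number as a block, fitted the compared groups alone, or omitted single libraries. Omitting the library of highest Tweedle score from each group was chosen after seeing the data.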

Additional observations from a re-analysis of the deposited data

Results flagged for a closer look

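Among the 32 sets of 4 libraries (8 genes in 4 groups), 2 held a library far from the other 3, and chance alone gives about 1 in 20. Both were in control on high sugar. For CkIIalpha, replicate 1 was highest, at 175 CPM against 159 to 162 in the others, and for CkIIbeta replicate 4 was lowest, at 130 CPM against 135 in each of the others. Replicate 4 is the library with the highest Tweedle score of its group, 5.72.

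The diet response of CkIIalpha differed between genotypes by 0.30 ± 0.08 on the log2 scale (limma, adjusted p = 0.0236), with a fall by 0.61 in control and by 0.31 in libraries labelled mutant. This difference did not pass without replicate 2 of control on low sugar or without replicate 2 of labelled mutant on high sugar (adjusted p = 0.0510 and 0.0506). Nor did it pass without the 4 libraries of highest Tweedle score (adjusted p = 0.109).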

How the results depend on the processing

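The counts of all genes that passed stayed within 1.5 times under the alternatives run, except for the interaction without the 4 libraries of highest Tweedle score (790 against 1659 genes), a fit of 12 libraries. The number of the 8 genes that passed on high sugar between genotypes went from 3 to 1 in that fit and with roX1 as a covariate. In the interaction it went from 1 to 2 with quantile normalization and with the Tweedle score as a covariate, to 0 without those 4 libraries, and ranged from 0 to 2 when 1 library was left out. The causes were not tested. Signs turned only for differences near 0 that passed in no setting. On low sugar, dco gave -0.042 with quantile normalization and -0.0085 with roX1, jet gave -0.0361 with quantile normalization and -0.0103 without the libraries of highest Tweedle score, and nmo gave -0.0588 in the latter. CkIIbeta on high sugar gave 0.005 with median-ratio scaling, 0.0118 with the Tweedle score and 0.0115 with roX1. With 1 library left out, the lowest and highest values were -0.0029 and 0.0472 for dco, -0.0259 and 0.058 for jet, -0.031 and 0.0649 for nmo, and -0.0194 and 0.0025 for CkIIbeta.

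Samples share only a replicate number: 12 of 24 same-numbered pairs had deviations correlated over 0.1 (range -0.435 to 0.577), and 5 of 16 libraries were closest to their own number. With the replicate block, sgg passed on diet in control (0.14, adjusted p = 0.0414) and between genotypes on high sugar (0.18, adjusted p = 0.0246), nmo did not pass on diet in libraries labelled mutant (-0.20, adjusted p = 0.0534), and no other call on the 8 genes changed. If the smallest value of each library is 1 read, which the check of the unit did not accept, the libraries hold down to 53 reads of to and 208 of jet. The part of counting error in the spread of these genes was not tested. The filter of at least 5 CPM left 7 of the 8 genes, since it drops to.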

Other observations

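After the group means were removed, the levels of slmb and jet ran opposite to each other over the 16 libraries (Pearson r = -0.902 of deviations in log2 level), while those of sgg and dco ran together (0.765), as did those of CkIIalpha and CkIIbeta (0.671). These values are descriptions chosen from 28 pairs after they were seen, and the libraries share scaling and depth.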
